A study of Mus musculus with 3 samples.

Results

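The nuclear genes of oxidative phosphorylation were followed through 3 stages of mammary tumor progression in cultured lung mesenchymal stromal cells (LMSCs). Members were taken by name from the annotated expression table: every symbol beginning with Nduf, Uqcr, Atp5 or Cox followed by a digit of 4 to 8, together with Sdha to Sdhd, Cyc1 and Cycs, and without pseudogenes. This gave 94 of the 34742 genes in the table, of which 43 belong to complex I, 4 to complex II, 9 to complex III, 1 to cytochrome c, 20 to complex IV and 17 to complex V. The cells came from lungs of MMTV-PyMT mice, in which the mouse mammary tumor virus promoter drives the polyoma middle T antigen in mammary epithelium, so all 3 groups carry the transgene. A-LMSCs came from mice of 7 weeks at the adenoma stage, PM-LMSCs from mice of 11 weeks before lung metastasis, and M-LMSCs from mice of 13 weeks with metastasis. Age and stage cannot be told apart, and no cells from mice without tumors are in the series. Each stage was 1 library of total RNA from adherent lung cells depleted of CD45+ leukocytes and grown in serum-containing medium, so no difference below was tested, and the intervals given cover counting error only.

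The respiratory chain passes electrons from NADH (complex I) and succinate (complex II) through ubiquinone, complex III and cytochrome c to oxygen at complex IV. The proton gradient built on the way drives ATP synthase, complex V. Most subunits are encoded in the nucleus, and the remaining ones by the mitochondrial genome. Stromal cells in culture are often described as relying strongly on glycolysis, and subunit mRNAs are abundant housekeeping transcripts.

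Total counts were 13479898 in A-LMSCs, 12594155 in PM-LMSCs and 14338909 in M-LMSCs, and the median member had 779.5, 730.5 and 1142 counts in these libraries. All 5 surface markers listed for LMSCs (Itgb1, Cd44, Pdgfra, Nes and Ly6a) were detected in every library, with a summed level of 197 CPM (counts scaled to a common library size, corrected by the trimmed mean of M-values, TMM) in A-LMSCs, 3362 in PM-LMSCs and 2889 in M-LMSCs. Markers of other cells were present too. The 15 mammary epithelial markers summed to 50.2, 104 and 1347 CPM in A-LMSCs, PM-LMSCs and M-LMSCs, with Ehf and Wnt7b at 0 in A-LMSCs, and 14 of the 15 were at least 2-fold higher in M-LMSCs than in PM-LMSCs. The 12 lung epithelial markers summed to 284, 94.5 and 142 CPM, and the 12 leukocyte markers to 105, 322 and 190 CPM. The 10 endothelial markers summed to 20.5, 23.9 and 11.7 CPM. Cd3e and Emcn were at 0 throughout, but Adgre1 had 0, 146 and 86 counts, Itgam 0, 48 and 72, and Lyz2 570, 3128 and 1707. Of 8 leukocyte markers reaching 1 CPM, 3 were at least 2-fold higher and 0 lower in PM-LMSCs than in A-LMSCs. The shares of all genes were 35.0% and 25.0%. In M-LMSCs against A-LMSCs 3 were higher and 1 lower, beside 41.0% and 27.7% of all genes. Kdr had 8, 116 and 56 counts, Cdh5 7, 61 and 12, and Egfl7 188, 73 and 90. The part of these cells in the differences below was not tested. In bulk RNA, fewer cells of a type and less RNA per cell cannot be told apart.

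Nuclear respiratory factor 1 (NRF1) is a transcription factor long known for binding the promoters of respiratory genes, and its letters GCGCANGCG, most of a palindrome, were searched on both strands from 250 bases before to 50 bases after the start site. RefSeq promoters (GRCm38.p6) were matched for 77 of the 94 members, 3 of them by an older symbol. The NRF1 letters were in 22 of the 77 (28.6%), against 6.47% of all 27025 promoters. An ETS core, CCGGAAG, was in 16 (20.8% against 9.12%), a YY1 motif, AAGATGGCG, in 7 (9.09% against 1.49%), and the hypoxia response core ACGTG in 21 (27.3% against 19.7%). The NRF1 letters were in 2 of 6 members at least 2-fold higher in PM-LMSCs than in A-LMSCs, 6 of 22 at least 2-fold lower and 14 of 47 between. A match describes the letters only, not a bound site. The 200 bases before the start are shown for 4 members that share the NRF1 letters (capitals) but moved differently on the TMM scale. Ndufaf4 was higher in PM-LMSCs and M-LMSCs than in A-LMSCs (chr4:24897883-24898082, + strand), and Sdha slightly higher (chr13:74350241-74350440, - strand). Cox6a1 (chr5:115348959-115349158, - strand) and Ndufa11 (chr17:56717562-56717761, + strand) were both lower.
Ndufaf4: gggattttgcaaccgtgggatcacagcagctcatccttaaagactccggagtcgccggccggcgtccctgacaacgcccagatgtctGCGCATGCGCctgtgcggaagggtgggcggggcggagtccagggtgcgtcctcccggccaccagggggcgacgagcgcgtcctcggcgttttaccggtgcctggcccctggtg
Sdha: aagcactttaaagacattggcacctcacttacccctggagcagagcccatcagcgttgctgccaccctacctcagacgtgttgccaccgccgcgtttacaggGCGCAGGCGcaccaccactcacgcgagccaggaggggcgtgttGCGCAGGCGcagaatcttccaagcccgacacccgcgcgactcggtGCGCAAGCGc
Cox6a1: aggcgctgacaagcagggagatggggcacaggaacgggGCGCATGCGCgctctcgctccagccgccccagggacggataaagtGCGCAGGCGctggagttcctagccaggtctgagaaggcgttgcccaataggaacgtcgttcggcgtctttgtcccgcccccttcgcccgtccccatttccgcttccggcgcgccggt
Ndufa11: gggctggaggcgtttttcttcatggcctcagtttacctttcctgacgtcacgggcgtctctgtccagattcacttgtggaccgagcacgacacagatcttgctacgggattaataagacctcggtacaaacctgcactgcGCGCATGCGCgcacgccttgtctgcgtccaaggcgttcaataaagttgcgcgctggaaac
Stretches in capitals are 1 match or overlapping matches on both strands. They begin 113 bases before the start in Ndufaf4, 98, 55 and 10 bases before it in Sdha, 162 and 117 bases in Cox6a1 and 60 bases in Ndufa11. With the trend on transcript GC content and length subtracted, log2 ratios in PM-LMSCs and M-LMSCs against A-LMSCs were 0.97 and -0.28 for Ndufaf4. For Sdha they were -0.48 and -0.26, for Cox6a1 0.35 and 0.36, and for Ndufa11 0.06 and 0.43. Ndufaf4 rested on 14 counts in A-LMSCs.

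In PM-LMSCs against A-LMSCs the members were mostly lower. Of 90 members measured (at least 1 CPM in the higher library), 8 were higher by 2-fold or more and 28 lower by as much on the log2(CPM + 1) scale, beside 35.0% of all 12727 genes measured that were higher and 25.0% that were lower. The median log2 ratio of the members was -0.58, against 0.19 for all genes, a distance of -0.78. Relative to the all-gene median, 7 members were at least 2-fold higher and 35 lower, beside 3944 and 3762 of all 12727 genes. With library totals alone as the scale, 10 were higher and 13 lower, beside 39.6% and 17.1% of all genes. The member median was then -0.27 and the all-gene median 0.47. The distance between both medians was then -0.74, so the direct counts depended on the scaling more than the distance did.

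In M-LMSCs against A-LMSCs, 10 of 89 measured members were 2-fold or more higher and 26 lower by that much, beside 41.0% and 27.7% of all 13223 genes. The member median was -0.69 and the all-gene median 0.34, a distance of -1.03. Relative to the all-gene median 7 members were higher and 45 lower, beside 4631 and 4660 of all 13223 genes. With library totals alone the split turned, with 18 higher and 5 lower, beside 47.4% and 13.7% of all genes. The distance between the medians was then -0.98. Both comparisons use the same A-LMSC library: 7 members were higher and 20 lower in both, and 0 moved in opposite directions past 2-fold. This overlap was not counted over all genes, so it is not read as a trait of the members.

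M-LMSCs and PM-LMSCs were close for these genes. Only Cox7b and Cox6b2 were at least 2-fold higher and only Cox7c lower in M-LMSCs among 90 measured members, beside 17.3% of all 13181 genes that were higher and 7.85% that were lower. The member median was 0.04 and the all-gene median 0.03. With library totals alone, 5 were higher and 0 lower, at a median of 0.27, beside 21.5% and 5.18% of all genes. For 36 of the 90 members the counting interval of the ratio included no difference.

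**Figure D1:**
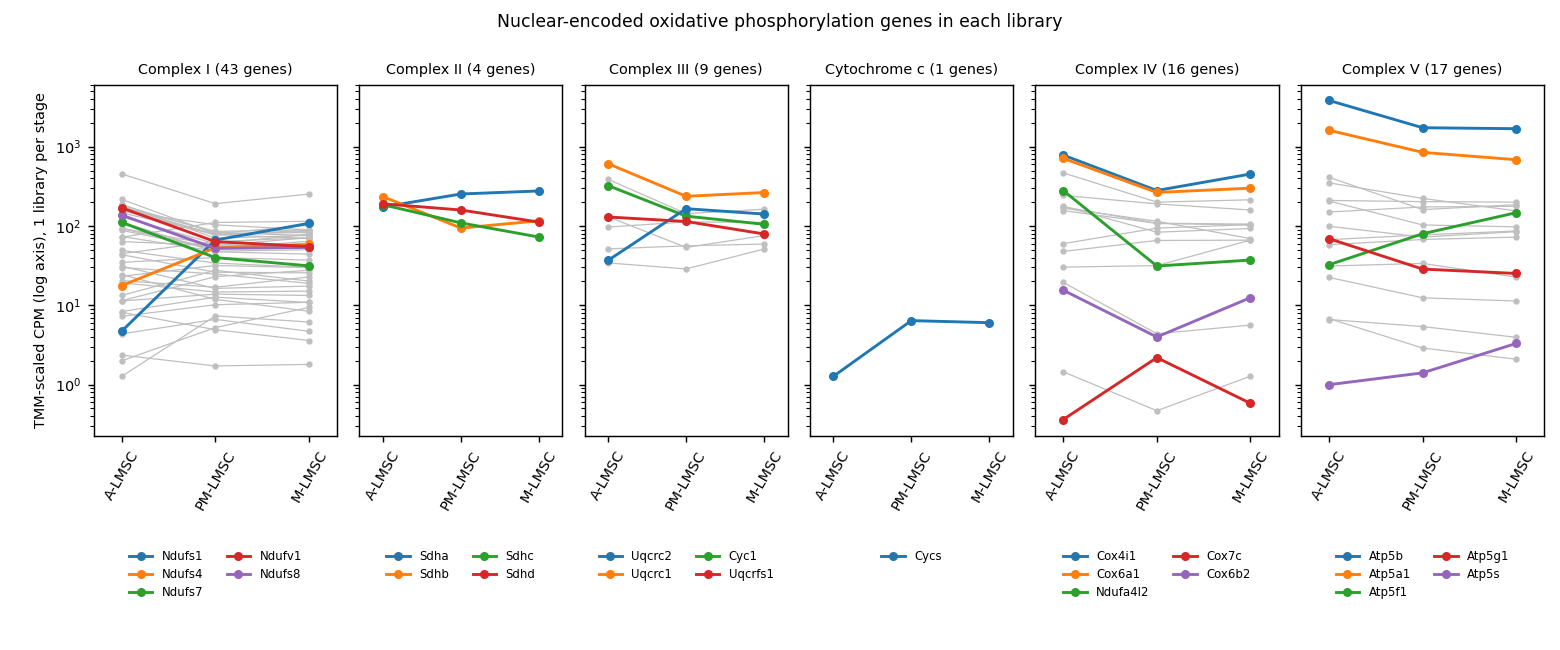
TMM-scaled CPM (log axis) of each member with counts in the library of each stage (A-LMSCs, PM-LMSCs, M-LMSCs), 1 line per gene and 1 panel per complex, with selected genes in color and the others in grey. Most grey lines are lower in PM-LMSCs and M-LMSCs than in A-LMSCs, whereas Ndufs1 stood at 4.71, 66.4 and 108 CPM and Uqcrc2 at 36.8, 165 and 141 CPM.

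As a summed level, members had 16630 CPM in A-LMSCs, 9143 in PM-LMSCs and 9300 in M-LMSCs. Unscaled, they took 1.36%, 0.929% and 1.12% of all counts. Atp5b, the catalytic beta subunit of ATP synthase, alone supplied 23.0%, 18.9% and 18.1% of the member counts. Without it the sum was 12809, 7412 and 7617 CPM. Per length, in the deposited FPKM (fragments scaled by transcript length and sequencing depth), Cox8a was first of the members in A-LMSCs at 701, second in PM-LMSCs at 372 and first in M-LMSCs at 471. Cox6a1, Atp5b and Cox6b1 filled the rest of the leading 4 in each library.

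Complex I, the NADH dehydrogenase, held both directions. Of 43 members, 4 were at least 2-fold higher and 12 lower in PM-LMSCs than in A-LMSCs (median -0.60), and 5 higher and 9 lower in M-LMSCs than in A-LMSCs (median -0.64). The lower calls were 27.9% and 20.9% of its members, close to or under the 25.0% and 27.7% of all genes, and the higher calls were 9.30% and 11.6%, against 35.0% and 41.0%. Between M-LMSCs and PM-LMSCs 0 passed 2-fold. The 7 core subunits, which carry the flavin and iron-sulfur clusters, had medians of -1.24 in PM-LMSCs and -0.84 in M-LMSCs against A-LMSCs, and the 29 accessory subunits -0.60 and -0.64. The 7 Ndufaf assembly factors had medians of 0.44 and 0.34. This order of the roles was lost with the trend on transcript GC content and length subtracted, where the medians were -0.04 and -0.09 for core subunits, -0.23 and -0.34 for accessory subunits and -0.42 and -0.28 for assembly factors.

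Ndufs1, the large iron-sulfur subunit of the matrix arm, had 52, 850 and 1861 counts in A-LMSCs, PM-LMSCs and M-LMSCs, or 4.71, 66.4 and 108 CPM. Its PM-LMSC level was 14.1-fold that of A-LMSCs (95% counting interval 10.6 to 19.0) and its M-LMSC level 22.9-fold (17.4 to 30.8), the highest ratios of any member in both comparisons. It shares 9 exon bases with Eef1b2 on the opposite strand. The other core subunits went the other way or changed less. Ndufv1, which binds NADH and the flavin, had 169, 63.4 and 55.0 CPM, Ndufs7, next to the ubiquinone site, 111, 39.9 and 31.4 CPM, and the iron-sulfur subunit Ndufs8 137, 52.2 and 53.6 CPM. In PM-LMSCs against A-LMSCs Ndufs7 was 2.78-fold lower (2.5 to 3.09), and in M-LMSCs 3.53-fold lower (3.19 to 3.92). Ndufv2, another iron-sulfur subunit, had 44.8, 63.7 and 71.0 CPM. Before trend subtraction, subunits of 1 complex therefore did not share a direction.

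Among accessory subunits, Ndufs4 had 17.7, 53.1 and 58.6 CPM, a 3.01-fold (2.56 to 3.54) and 3.32-fold (2.84 to 3.88) higher level in PM-LMSCs and M-LMSCs than in A-LMSCs. Ndufa1, of the membrane arm, had 11.4, 23.0 and 27.6 CPM. Ndufa11 had 216, 80.0 and 102 CPM, and Ndufa13 188, 70.1 and 76.1 CPM. Before trend subtraction, Ndufs4 and Ndufa1 were thus low in A-LMSCs, and Ndufa11 and Ndufa13 high in it. Of the assembly factors, Ndufaf4 had 14, 94 and 106 counts (1.27, 7.34 and 6.15 CPM) and Ndufaf1 22, 67 and 162 counts (1.99, 5.23 and 9.40 CPM). Ndufaf3 had 24.4, 11.9 and 8.41 CPM, so the assembly factors also went both ways.

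Complex II, succinate dehydrogenase, had 0 of 4 members higher and Sdhb lower past 2-fold in PM-LMSCs against A-LMSCs. In M-LMSCs against A-LMSCs Sdhb and Sdhc were lower. The lower calls were thus 1 of 4 and 2 of 4 members, beside 25.0% and 27.7% of all genes. The higher calls were 0 of 4 in each, beside 35.0% and 41.0%. Sdhb, the iron-sulfur subunit, had 235, 94.1 and 116 CPM in A-LMSCs, PM-LMSCs and M-LMSCs. Sdhc, a membrane anchor, had 185, 109 and 72.5 CPM, and Sdhd, the other anchor, 190, 159 and 112 CPM. Sdha, the flavoprotein that oxidizes succinate, had 173, 253 and 276 CPM, with log2 ratios of 0.54 in PM-LMSCs and 0.67 in M-LMSCs against A-LMSCs. On this scale the other 3 members were below A-LMSCs at both later stages, but Sdhd had a log2 ratio of 0.05 in PM-LMSCs against A-LMSCs by library totals alone and by deposited FPKM, against -0.26 by TMM.

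In complex III, 1 of 9 members was at least 2-fold higher in both PM-LMSCs and M-LMSCs than in A-LMSCs. In PM-LMSCs 4 were lower and in M-LMSCs 3, with medians of -0.24 and -0.70. The lower calls were 44.4% and 33.3% of its members, beside 25.0% and 27.7% of all genes. The higher calls were 11.1% in each, beside 35.0% and 41.0%. Uqcrc2, a core protein, had 406, 2114 and 2435 counts (36.8, 165 and 141 CPM), which was 4.49-fold (4.03 to 5.0) higher in PM-LMSCs and 3.84-fold (3.45 to 4.27) higher in M-LMSCs than in A-LMSCs. Its partner core protein Uqcrc1 had 610, 237 and 264 CPM, 2.58-fold (2.47 to 2.69) lower in PM-LMSCs and 2.31-fold (2.22 to 2.40) lower in M-LMSCs than in A-LMSCs. On this scale the core pair had ratios of opposite sign, but with the GC and length trend subtracted Uqcrc2 was at 0.87 in PM-LMSCs and 0.10 in M-LMSCs and Uqcrc1 at -0.76 and -0.33 against A-LMSCs, and with a coding-sequence trend both were below 0 in M-LMSCs (-0.31 and -0.29). Cyc1, the heme-bearing cytochrome c1, had 323, 133 and 105 CPM, and the small subunit Uqcrq 388, 143 and 163 CPM. The Rieske protein Uqcrfs1, with 130, 114 and 79.3 CPM, stayed within 2-fold.

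Cytochrome c itself, from Cycs, had 14, 82 and 104 counts, or 1.27, 6.41 and 6.03 CPM. The ratio was 5.05-fold (2.84 to 9.64) in PM-LMSCs and 4.75-fold (2.71 to 9.0) in M-LMSCs against A-LMSCs. Cycs has 8 annotated pseudogene copies near-identical to its coding sequence, and how reads were shared between them is not given in the sources used here, so its level is uncertain.

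**Figure D2:**
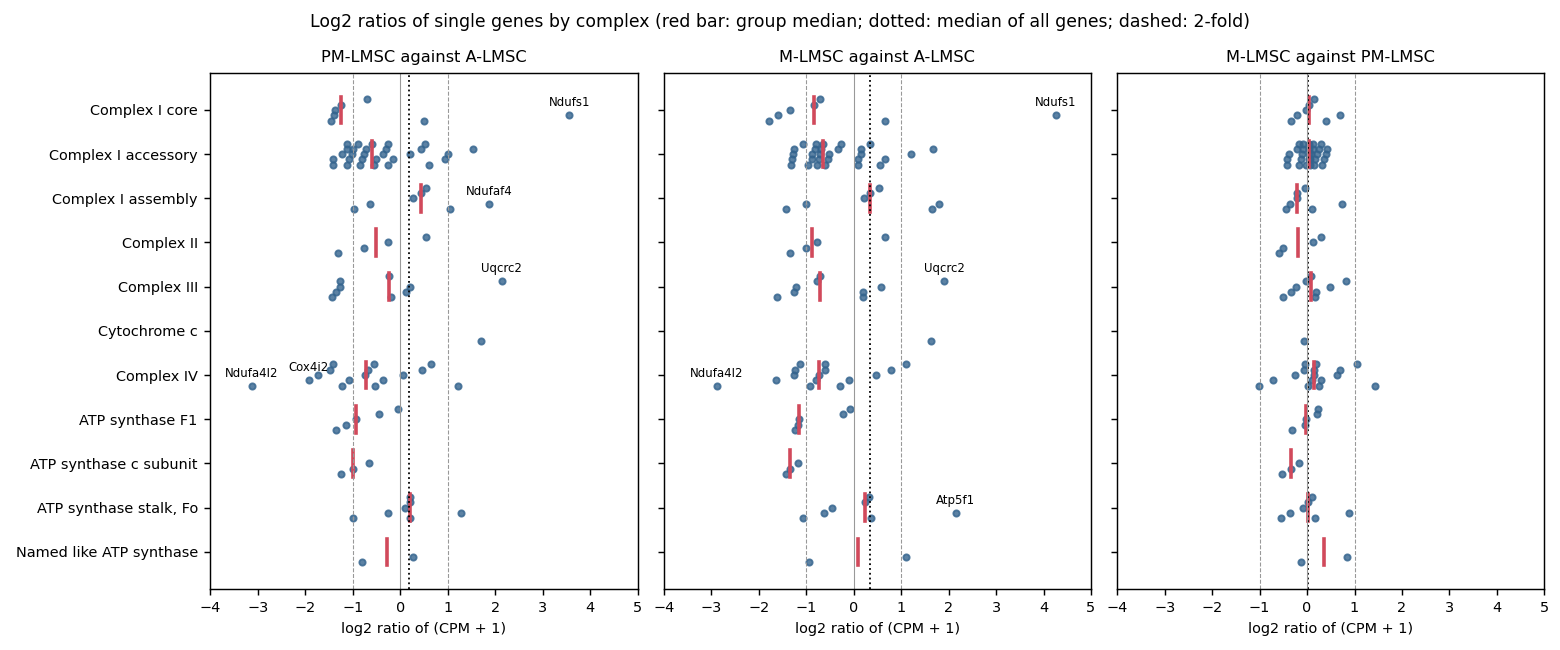
Log2 ratio of (CPM + 1) of each measured member, 1 point per gene, grouped by complex and role, for PM-LMSCs against A-LMSCs, M-LMSCs against A-LMSCs and M-LMSCs against PM-LMSCs, with a red bar for the group median, a dotted line for the median of all genes and dashed lines at 2-fold. Ndufs1 lies farthest right at 3.56 and 4.25 and Ndufa4l2 farthest left at -3.12 and -2.88, while the panel of M-LMSCs against PM-LMSCs is narrow around a median of 0.04.

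Complex IV, cytochrome c oxidase, had 1 of 16 measured members at least 2-fold higher and 7 lower in PM-LMSCs than in A-LMSCs (median -0.71). In M-LMSCs against A-LMSCs 1 of 15 was higher and 5 lower (median -0.72). The lower calls were 43.8% and 33.3% of its measured members, beside 25.0% and 27.7% of all genes. The higher calls were 6.25% and 6.67%, beside 35.0% and 41.0%. The muscle, heart or testis isoform genes Cox6a2, Cox7b2, Cox8b and Cox8c had 0 counts in all 3 libraries, where 3 counts correspond to 0.272, 0.234 and 0.174 CPM in A-LMSCs, PM-LMSCs and M-LMSCs. Of the ubiquitous subunits, Cox6a1 had 712, 265 and 300 CPM, Cox8a 467, 200 and 214 CPM, and Cox4i1 783, 280 and 452 CPM. All 3 were highest in A-LMSCs. Cox7a2 had 47.7, 65.6 and 66.2 CPM and was higher later without reaching 2-fold. Cox7b had 30.3, 31.6 and 66.3 CPM, 2.10-fold (1.87 to 2.35) higher in M-LMSCs than in PM-LMSCs. Cox7c rested on 4, 28 and 10 counts and has 4 pseudogene copies, so its call is weak.

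In PM-LMSCs against A-LMSCs the 3 lowest ratios belonged to the isoform or paralog genes Ndufa4l2 (-3.12), Cox4i2 (-1.93) and Cox6b2 (-1.73), whereas in M-LMSCs against A-LMSCs Ndufs7 (-1.79) lay between Ndufa4l2 (-2.88) and Cox4i2 (-1.63). Ndufa4l2, a paralog of the complex IV subunit Ndufa4 known for induction by hypoxia, had 3085, 400 and 641 counts, or 280, 31.2 and 37.2 CPM. It was 8.95-fold (8.06 to 9.96) lower in PM-LMSCs and 7.52-fold (6.90 to 8.20) lower in M-LMSCs than in A-LMSCs. Ndufa4 had 59.8, 94.0 and 104 CPM. Per length, Ndufa4l2 stood at 238, 33.1 and 46.6 FPKM and Ndufa4 at 18.3, 35.6 and 46.6 FPKM. Its share of the FPKM of the pair was 92.9%, 48.1% and 49.99%. Of the counts of the pair it took 82.4% in A-LMSCs (exact 95% interval 81.1 to 83.6), 25.0% in PM-LMSCs (22.9 to 27.1) and 26.4% in M-LMSCs (24.6 to 28.2). It shares 32 exon bases with Shmt2, which had 10108, 3540 and 2428 counts. Cox4i2, the isoform known from lung and hypoxic cells, had 215, 56 and 97 counts (19.5, 4.37 and 5.63 CPM) and made up 5.39%, 3.45% and 2.77% of the summed FPKM of Cox4i1 and Cox4i2. Cox6b2 had 15.5, 3.98 and 12.5 CPM, lower in PM-LMSCs than in both other libraries. Its partner Cox6b1 had 243, 190 and 159 CPM. Cox7a1, with 16, 6 and 22 counts, was too shallow for a direction.

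**Figure D3:**
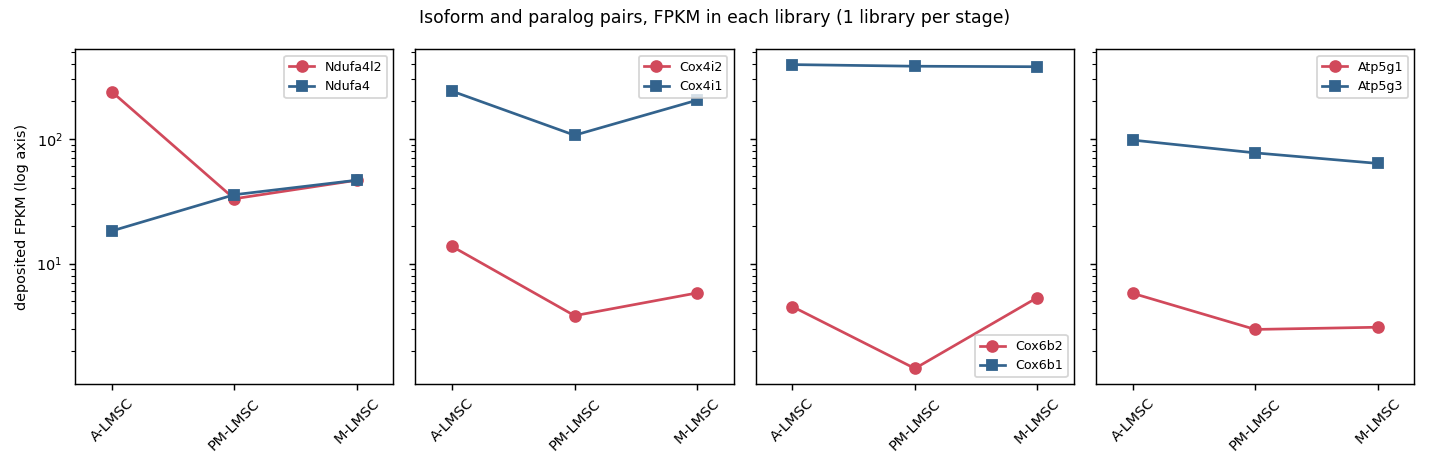
Deposited FPKM (log axis) of 4 isoform or paralog pairs in the library of each stage (A-LMSCs, PM-LMSCs, M-LMSCs), the less widely expressed gene in red and its partner in blue. Ndufa4l2 is far above Ndufa4 in A-LMSCs (238 against 18.3 FPKM) and level with it in M-LMSCs (46.6 FPKM each), while the partner gene dominates the other 3 pairs in every library.

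Complex V, the ATP synthase, had 1 of 17 members at least 2-fold higher and 4 lower in PM-LMSCs than in A-LMSCs (median -0.45), and 2 higher and 7 lower in M-LMSCs than in A-LMSCs (median -0.62). The lower calls were 23.5% and 41.2% of its members, beside 25.0% and 27.7% of all genes. The higher calls were 5.88% and 11.8%, beside 35.0% and 41.0%. The 5 genes of the catalytic F1 head had medians of -0.93 and -1.14. Atp5b had 3821, 1731 and 1683 CPM in A-LMSCs, PM-LMSCs and M-LMSCs, and Atp5a1, the alpha subunit, 1609, 847 and 684 CPM. Atp5d, of the central stalk, had 411, 161 and 185 CPM. Atp5e had 99.1, 72.4 and 84.8 CPM, and Atp5c1, the gamma subunit that turns inside the head, 210, 203 and 200 CPM. Atp5b and Atp5d were past 2-fold lower at both later stages and Atp5a1 in M-LMSCs, while Atp5c1 and Atp5e stayed within 2-fold.

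The 3 c-subunit genes make the same mature ring protein, and all had a ratio below 0 in both comparisons, at medians of -1.0 and -1.34. Atp5g3, the leading one per length, had 350, 222 and 155 CPM, Atp5g1 69.2, 28.6 and 25.2 CPM, and Atp5g2 6.80, 2.89 and 2.09 CPM. Atp5g1 has 4 pseudogene copies. The 7 stalk and membrane genes had medians of 0.20 and 0.24, but with the GC and length trend subtracted these became -0.94 and -1.19, below 0 like those of the c-subunit genes (-1.26 and -1.83). Atp5f1, the b subunit of the peripheral stalk, had 358, 1021 and 2535 counts (32.4, 79.8 and 147 CPM), 2.46-fold (2.18 to 2.78) higher in PM-LMSCs and 4.53-fold (4.06 to 5.08) higher in M-LMSCs than in A-LMSCs. Atp5o, Atp5h and Atp5j stayed between 0.20 and 0.36 on the log2 scale in both comparisons, and Atp5h may share reads with an annotated pseudogene copy that had 920, 1083 and 1709 counts, more than its own 640, 864 and 1248. Atp5s, named like a subunit but not counted as one, had 11, 18 and 57 counts.

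The ratio of a member went with the GC content of its coding sequence. Over members, Spearman's rho between both was -0.77 in PM-LMSCs against A-LMSCs (n = 90) and -0.71 in M-LMSCs against A-LMSCs (n = 89), but 0.04 in M-LMSCs against PM-LMSCs. These points share their libraries and the values are descriptive. Over all protein-coding genes rho was -0.59, -0.67 and -0.37. Of the 30 members lowest in coding GC (42.0% to 50.8%), 7 were at least 2-fold higher and 1 lower in PM-LMSCs than in A-LMSCs. Of the 30 highest (55.2% to 65.2%), 0 were higher and 22 lower. The corresponding counts in M-LMSCs against A-LMSCs were 9 higher and 3 lower, and 0 higher and 17 lower. All protein-coding genes of 58% to 60% coding GC had medians of -1.08 in PM-LMSCs and -1.24 in M-LMSCs against A-LMSCs. Those of 46% to 48% had medians of 1.84 and 2.41. Lower calls at high GC were thus not particular to the members.

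**Figure D4:**
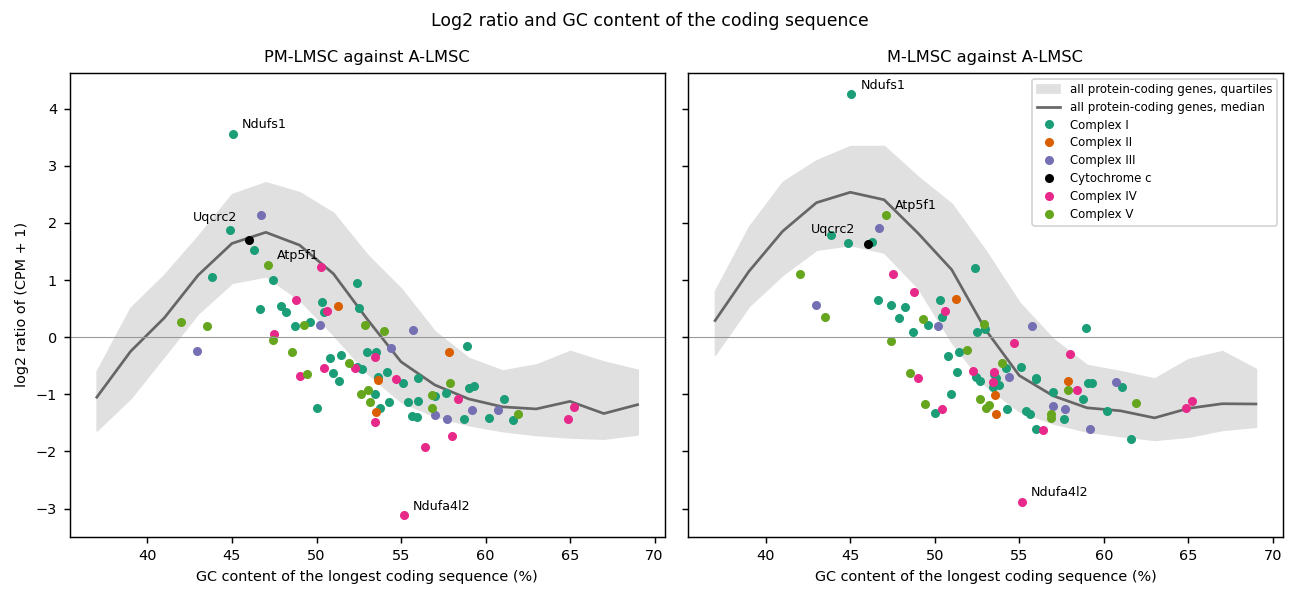
Log2 ratio of (CPM + 1) of each member against the GC content of its longest coding sequence, colored by complex, for PM-LMSCs against A-LMSCs and M-LMSCs against A-LMSCs, with the median (line) and quartiles (band) of all protein-coding genes in steps of GC content. Members run downward with GC content (rho -0.77 and -0.71), mostly along or under the line of all genes, with Ndufs1 above the band and Ndufa4l2 below it.

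With the trend of the ratio on transcript GC content and length subtracted, the member medians were -0.38 in PM-LMSCs and -0.30 in M-LMSCs against A-LMSCs, beside -0.03 and -0.02 for all genes. In PM-LMSCs the counts became 3 higher and 23 lower, beside 18.9% and 17.1% of all genes. In M-LMSCs they became 1 higher and 31 lower, beside 18.9% and 18.8% of all genes. Ndufs1 kept log2 ratios of 2.13 and 2.49 and Ndufa4l2 of -1.43 and -1.22. Among subunits of high coding GC, Cox6a1 had 0.35 and 0.36, Cox8a 0.26 and 0.28, Atp5d 0.26 and 0.53, Cyc1 0.47 and 0.18, and Ndufs7 0.17 and -0.18. Others stayed below 0: Ndufb7 at -0.78 and -0.32, Ndufa7 at -1.48 and -1.52, Ndufb2 at -2.64 and -3.13, and Cox5b at -1.78 and -1.71. High-GC subunits thus lay on both sides of 0 after subtraction. Uqcrc2 had 0.87 and 0.10 after subtraction, and Ndufs4 0.40 and -0.23. Atp5b kept -0.88 and -0.73, Sdhc -1.79 and -2.26, and Atp5g3 -1.26 and -1.83.

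**Figure D5:**
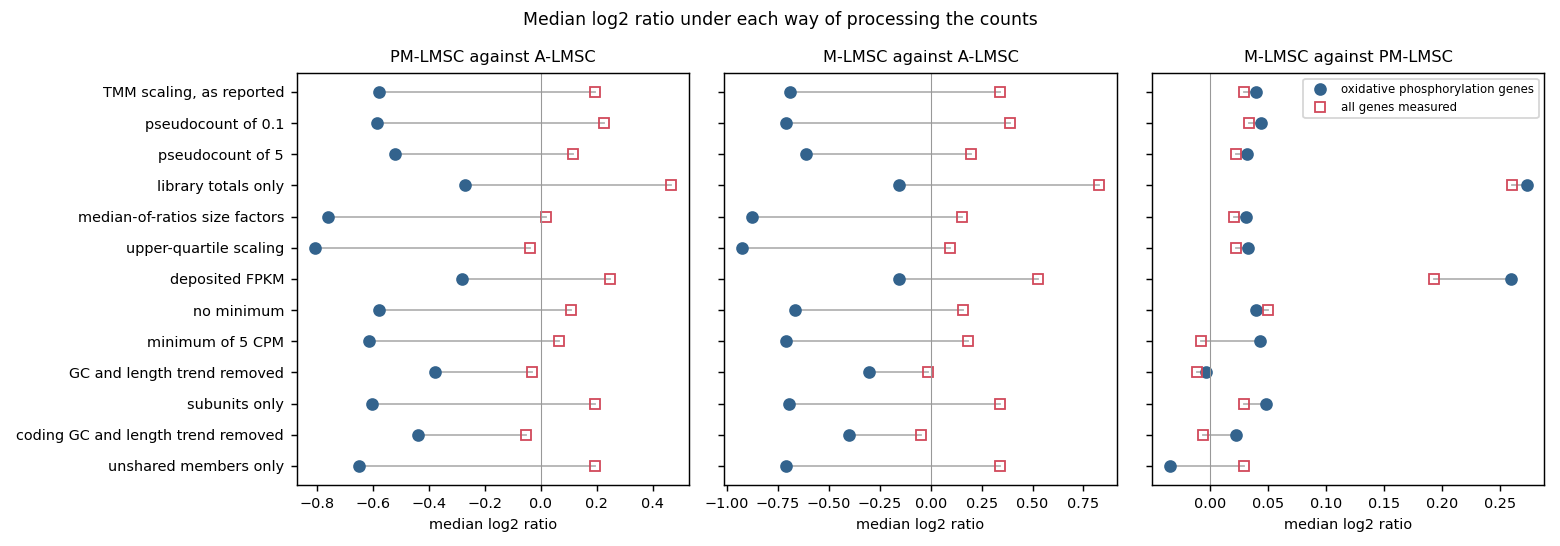
Median log2 ratio of the members (filled circles) and of all genes measured (open squares) for PM-LMSCs against A-LMSCs, M-LMSCs against A-LMSCs and M-LMSCs against PM-LMSCs, 1 row for each way of processing the counts. In the first 2 panels the circles lie left of the squares in every row, at -0.58 and 0.19 and at -0.69 and 0.34 as reported, whereas in the third both lie close together.

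Partner genes outside the name rule gave context. Of 39 measured assembly factors, 10 were at least 2-fold higher and 13 lower in PM-LMSCs than in A-LMSCs (median -0.03), and 13 higher and 10 lower in M-LMSCs than in A-LMSCs (median -0.37). The higher calls were 25.6% and 33.3%, below the 35.0% and 41.0% of all genes. Lrpprc, which stabilizes mitochondrial mRNAs, had 1.90, 46.0 and 67.9 CPM, and Sco2, a copper chaperone of complex IV, 82.0, 34.4 and 30.4 CPM. Among 12 regulators of mitochondrial gene expression, 5 of 11 measured were higher and 2 lower in PM-LMSCs, and 5 of 12 higher and 1 lower in M-LMSCs, against A-LMSCs. In M-LMSCs the higher calls, 41.7%, matched the 41.0% of all genes, and in PM-LMSCs they were 45.5% beside 35.0%. Gabpa, the ETS factor also called NRF2, had 1.90, 18.1 and 37.7 CPM, Tfam, which packages mitochondrial DNA, 2.81, 17.2 and 20.7 CPM, and Nrf1 30.9, 28.0 and 15.7 CPM.

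The 13 mitochondrially encoded subunits of the same complexes summed to 12466, 5265 and 14937 CPM in A-LMSCs, PM-LMSCs and M-LMSCs, with median log2 ratios of -1.32 in PM-LMSCs and 0.39 in M-LMSCs against A-LMSCs. In M-LMSCs against PM-LMSCs 10 of 13 (76.9%) were at least 2-fold higher, beside 17.3% of all genes, and the nuclear members had 2 of 90 (2.22%). With the GC and length trend subtracted, 2 of these 13 were higher and 2 lower (median 0.25), beside 10.9% and 8.91% of all genes. The median of the 13 in M-LMSCs against A-LMSCs turned to -1.32. Single genes of this list can rest on 1 count: mt-Atp6 had 4886, 1 and 2324 counts and mt-Nd4l 1, 542 and 3358 in A-LMSCs, PM-LMSCs and M-LMSCs. mt-Co1, the catalytic subunit of complex IV, had 2490, 1721 and 5543 CPM. The tricarboxylic acid cycle genes (14) had medians of -0.12 and -0.57, with Idh2 at 236, 97.1 and 33.8 CPM and Idh3a at 8.43, 90.0 and 96.4 CPM. Mitochondrial ribosomal protein genes (77) had medians of -0.33 and -0.43, cytosolic ribosomal protein genes (81 measured) -0.33 and -0.71, and proteasome genes (38) 0.06 and -0.05, beside -0.58 and -0.69 for the members. Of 9 measured ubiquinone synthesis genes, 3 were lower in PM-LMSCs and 4 in M-LMSCs than in A-LMSCs, and 1 was higher in each. Their lower calls were 33.3% and 44.4%, beside 25.0% and 27.7% of all genes. Their higher calls were 11.1% in each, beside 35.0% and 41.0%. The ADP/ATP, phosphate and outer membrane carriers (6) had medians of -0.05 and -0.35, and the 3 ATP synthase parts filed under other symbols 0.17 and 0.40.

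Sequence ambiguity touched many members. Exon bases were shared with another annotated gene by 32 members, a near-identical pseudogene copy existed for 33, and 52 had either. Ndufs5, with 48, 85 and 81 counts in A-LMSCs, PM-LMSCs and M-LMSCs, has a copy in the table with 509, 562 and 743 counts. Among the 39 measured members with neither, 3 were higher and 14 lower in PM-LMSCs than in A-LMSCs (median -0.65). In M-LMSCs against A-LMSCs 5 were higher and 13 lower (median -0.71). The shares of all genes were 35.0% higher and 25.0% lower, and 41.0% and 27.7%.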

How the data were processed

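RNA of 3 LMSC libraries, 1 per stage, had been sequenced by the authors on an Illumina platform, with alignment by TopHat2 2.0.9 to mouse build mm10 according to the submitters' notes. The deposited table holds raw counts per gene and, for the same genes, FPKM values that the authors computed. For the counting program, its annotation and its use of strand, the answer is not given in the sources used here. Of 34748 lines, 6 incomplete ones were left out. Columns with no sample numbered 0.

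Counts were scaled by TMM (edgeR 4.0.16) to CPM. Ratios are log2(CPM + 1) differences, and folds with intervals are plain CPM ratios with exact 95% conditional binomial intervals. A gene was measured at 1 CPM in the higher library, and called at 2-fold. No test was possible with 1 library per stage. The study joined these libraries to another series with limma, which was not used here. Trends were removed by lowess (span 0.3, statsmodels 0.14.6) on GC content, then length, of the longest GENCODE transcript. The ratio script was checked on simulated counts. Pseudogene copies were found with BLAST+ 2.17.0 at 90% identity over 80% of the coding sequence.

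Members and lists were chosen with earlier results of these data known. Named members are the catalytic, cofactor, F1 and c-ring subunits, the isoform pairs, the 3 highest and 3 lowest ratios per complex and comparison, and up to 4 of each other list; 1 core subunit is not reported here by name. The members named beside the promoter sequences and the single marker genes named for other cells were chosen after their values were seen. So were Ndufa7, Ndufb2 and Cox5b among the high-GC subunits. Alternatives were other pseudocounts, scalings, minimums, FPKM, trend removal and narrower member lists.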

Additional observations from a re-analysis of the deposited data

How the results depend on the processing

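No paired analysis was possible because each stage had 1 library, and for the same reason no library could be left out in turn. In PM-LMSCs and in M-LMSCs against A-LMSCs the member median stayed below 0 and below the all-gene median under every alternative run. The counts past 2-fold moved more, and the all-gene shares changed too. By FPKM, 32.5% of all genes were higher and 16.1% lower in PM-LMSCs than in A-LMSCs. In M-LMSCs against A-LMSCs these shares were 41.1% and 12.2%, and in M-LMSCs against PM-LMSCs 14.3% and 3.69%. With a pseudocount of 5, 24.4% of all genes were higher in PM-LMSCs and 29.6% in M-LMSCs than in A-LMSCs. With coding trend removal these were 21.5% and 22.3%. In PM-LMSCs against A-LMSCs, library totals alone gave a median of -0.27 with 13 lower, deposited FPKM -0.28 with 13 lower, upper-quartile scaling -0.81, a pseudocount of 5 gave 4 higher, transcript trend removal -0.38 with 3 higher, coding trend removal 3 higher, and members without shared exons or copies 3 higher and 14 lower. In M-LMSCs against A-LMSCs, library totals alone gave a median of -0.15 with 18 higher and 5 lower, FPKM -0.15 with 17 higher and 5 lower, upper-quartile scaling -0.93, median-of-ratios (DESeq2 1.42.0) -0.88, a pseudocount of 5 gave 6 higher, transcript trend removal -0.30 with 1 higher, coding trend removal -0.40 with 5 higher, and the members without shared exons or copies 5 higher and 13 lower. In M-LMSCs against PM-LMSCs, library totals alone gave a median of 0.27 with 5 higher and 0 lower, FPKM 0.26 with 5 higher and 0 lower, a pseudocount of 0.1 gave 4 higher and of 5 gave 0 higher and 0 lower, median-of-ratios, upper-quartile scaling and a minimum of 5 CPM each 0 lower, transcript trend removal -0.0031 with 1 higher and 6 lower, coding trend removal 1 higher and 2 lower, and the members without shared exons or copies -0.035 with 1 higher and 0 lower. For M-LMSCs against PM-LMSCs, the shares of all genes higher and lower were 20.6% and 10.1% with a pseudocount of 0.1. They were 9.38% and 4.76% with a pseudocount of 5. Transcript trend removal gave 10.9% and 8.91%, and coding trend removal 11.7% and 8.48%. Median-of-ratios, upper-quartile scaling and a minimum of 5 CPM gave 7.96%, 7.91% and 8.27% lower. The coding trend and the list without shared members were chosen after seeing the data. The cause of these shifts was not tested.

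Complex medians turned in PM-LMSCs against A-LMSCs for complex III (0.061 by library totals, 0.061 by FPKM). In M-LMSCs against PM-LMSCs they turned for complex II (0.052 by library totals, 0.049 by FPKM), complex V (0.20 by both), complex I (-0.0005 by transcript trend, -0.094 without shared members) and complex III (-0.29 by transcript trend, -0.12 by coding trend, -0.34 without shared members).

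Named members past 2-fold turned only when a trend was removed. Members nearer 0 also turned by library totals in PM-LMSCs against A-LMSCs, to 0.26 for Atp5c1, 0.052 for Sdhd, 0.061 for Uqcrb and 0.12 for Uqcrfs1, and likewise by FPKM. With the transcript trend, in PM-LMSCs against A-LMSCs, log2 ratios became 0.26 for Atp5d, 0.83 for Atp5g2, 0.35 for Cox6a1, 0.26 for Cox8a, 0.47 for Cyc1, 0.063 for Ndufa11, 0.28 for Ndufa13, -0.19 for Ndufaf1, 0.17 for Ndufs7 and 0.31 for Uqcr11. In M-LMSCs against A-LMSCs they became 0.53 for Atp5d, 0.34 for Atp5g2, -0.65 for Atp5s, 0.36 for Cox6a1, -0.87 for Cox7b, 0.28 for Cox8a, 0.18 for Cyc1, -0.30 for Cycs, 0.43 for Ndufa11, 0.41 for Ndufa13, -0.28 for Ndufaf4 and -0.23 for Ndufs4. With the coding trend, in PM-LMSCs against A-LMSCs, they became 0.079 for Atp5d, -0.19 for Atp5f1, 0.030 for Atp5g2, 0.10 for Cox6a1, 0.37 for Cox8a, -0.0057 for Ndufaf1 and 0.28 for Uqcr11. In M-LMSCs against A-LMSCs they became 0.36 for Atp5d, -0.59 for Atp5s, 0.27 for Cox6a1, -0.68 for Cox7b, 0.43 for Cox8a, -0.35 for Cycs, 0.33 for Ndufa11, 0.19 for Ndufa13, -0.26 for Ndufaf1, -0.38 for Ndufaf4, -0.34 for Ndufs4, -0.31 for Uqcrc2 and 0.11 for Uqcrq. Depth limits Cycs, Ndufaf4, Cox7a1, Cox7c and Atp5s, which had 4 to 16 counts in A-LMSCs.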
